A study of Mus musculus with 6 samples.

Results

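Lipopolysaccharide (LPS), a component of the outer membrane of Gram-negative bacteria, is sensed on macrophages by a receptor complex of TLR4 and MD-2. CD14 hands LPS to this complex and takes part in its uptake into endosomes. From the plasma membrane TLR4 signals through TIRAP and MyD88, which assemble IRAK4, IRAK1 and IRAK2 and then engage the ubiquitin ligase TRAF6, and from endosomes it signals through TRAM and TRIF towards IRF3 and type I interferon. The 10 genes described here encode the LPS co-receptors (*Cd14*, and *Ly96* for MD-2), the MyD88 branch (*Tirap*, *Myd88*, *Irak4*, *Irak1*, *Irak2* and *Traf6*) and the adaptors of the TRIF branch (*Ticam2* for TRAM, *Ticam1* for TRIF). They were found by gene symbol, 10 of 10, among the 15415 genes of the deposited table.

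RNA was sequenced from starch-elicited peritoneal macrophages (PEMs). Of the 6 libraries, 3 carried the genotype LysM-Cre; *Tim-4* fl/fl (named knockout here) and 3 were *Tim-4* fl/fl without Cre (control), all on the C57BL/6J background and, by the methods of the study, males 6 to 8 weeks old. The treatment entry of the labels is LPS for all 6 libraries, and no unstimulated library was analysed here, so that the response to LPS itself was not measured. Both groups carry the floxed *Tim-4* allele, Cre is driven from the lysozyme gene *Lyz2* and can act in myeloid cells other than macrophages, and the effects of the Cre allele and of the *Tim-4* deletion cannot be told apart. The titles and the genotype entry of the labels name the groups in opposite ways, and grouping was by title. The labels do not say whether the libraries of a group came from separate mice, so the p-values measure the spread between these libraries only.

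*Timd4*, the gene of Tim-4, was at 0.246 to 0.394 FPKM (reads scaled by gene length and by the reads of the library) in the knockouts against 19.5, 12 and 1.19 FPKM in controls 1 to 3. *Lyz2* was at 41.4, 4656 and 106 FPKM in knockouts 1 to 3 against 7090 to 8482 FPKM in the controls, so knockout library 2 stood apart from the other two. Between 36170767 and 42217558 reads per library lay on the listed genes. The macrophage markers *Adgre1*, *Itgam*, *Csf1r*, *Cd68*, *Fcgr1* and *Mertk* summed to 2295 to 2470 FPKM in the knockout and 1640 to 2181 FPKM in the control libraries. Only 3 of these 6 markers had a higher mean in the knockout, so the sum does not stand for each of them. Markers of other cells are given as summed FPKM over each list, and their libraries did not overlap between the groups except for neutrophils, small peritoneal macrophages with monocytes, and mesothelial cells with fibroblasts. Markers of large peritoneal macrophages lay between 3.53 and 6.2 in the knockout and between 34.3 and 140 in the control libraries, B cell markers between 2.78 and 5.52 against 27.5 and 115, mast cell markers between 1.89 and 2.25 against 37.5 and 49.0, and T cell markers between 1.07 and 1.72 against 2.68 and 10.7. Neutrophil markers lay between 71.2 and 201 against 195 and 459, those of small peritoneal macrophages and monocytes between 89.7 and 244 against 198 and 390, those of mesothelial cells and fibroblasts between 10.2 and 25.4 against 2.04 and 11.5, and those of eosinophils between 0.0803 and 0.27 against 0.504 and 0.674. No value of *Ly6g*, *Prg2* or *Epx*, defining markers of neutrophils and eosinophils, was analysed here. The part of these cells in the results below was not tested. In bulk RNA, fewer cells of a type and less RNA per cell cannot be told apart.

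To see how the members differ before the knockout is considered, their levels were put in order by FPKM, which is per gene length. *Cd14* was the highest member in both groups, at 556 ± 73.2 FPKM (SD, n = 3) in the control libraries, above 98.8% of the 9030 tested genes. It was followed by *Myd88* at 98.6 ± 16.9 FPKM, *Irak2* at 45.4 ± 2.44 FPKM and *Ly96* at 20.8 ± 0.695 FPKM, and the library ranges of these neighbours did not overlap. Below them, the neighbours *Irak1*, *Ticam2*, *Ticam1* and *Traf6* were not separated by their ranges, and neither were *Irak4* and *Tirap*, the lowest member at 5.68 ± 0.762 FPKM. The knockout libraries had the same order from *Cd14* (338 ± 72.2 FPKM) down to *Tirap* (6.09 ± 0.374 FPKM), with overlaps between the same neighbours. Within the MyD88 branch, *Myd88* and *Irak2* made up 77.0% to 81.7% of the summed FPKM in the control and 84.1% to 85.6% in the knockout libraries.

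**Figure D1:**
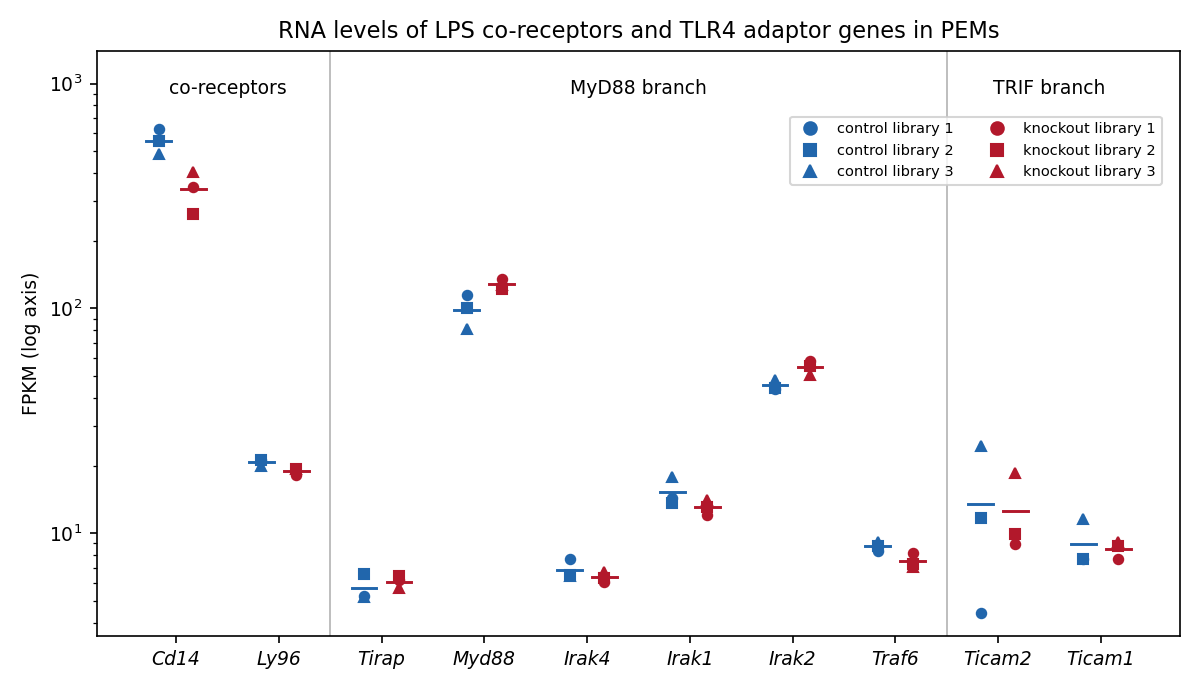
FPKM (log axis) of the 10 genes in each library, with control libraries in blue and knockout libraries in red, a marker shape for each replicate number and a line at each group mean (n = 3). *Cd14* is lower and *Myd88* and *Irak2* are higher in every knockout library than in every control library, and *Ticam2* spreads from 4.41 to 24.5 FPKM among the controls.

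Groups were compared by limma on log2(FPKM + 1), fitted to all 9030 genes that reached a mean of 1 FPKM in either group, with Benjamini-Hochberg adjustment and a threshold of 0.05. Of the 10 members, all of which were tested, 0 passed the threshold in limma, where 7.31% of all tested genes did. At an unadjusted p below 0.05 there were 2 members, *Cd14* and *Myd88*, against 27.6% of all tested genes, and limma-voom on the recovered reads also gave 0 past the threshold and 2 at the unadjusted level. There were 3 at that level, with *Irak2*, after rescaling by the median of ratios and without a filter on low values. In 5 members the libraries of the groups did not overlap (*Myd88* and *Irak2* higher, *Cd14*, *Ly96* and *Traf6* lower in the knockout), beside 34.1% of all tested genes (11.1% higher and 23.0% lower). The median log2 fold change of the members was -0.07, and that of all tested genes was -0.11. Rescaling FPKM by the median of ratios moved the median of all genes to 0.01. Under this scaling *Cd14*, *Myd88* and *Irak2* still did not overlap between the groups, *Ly96* and *Traf6* did, beside 32.8% of all tested genes without overlap, and the values of *Ly96*, *Irak4* and *Ticam1* changed sign.

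**Figure D2:**
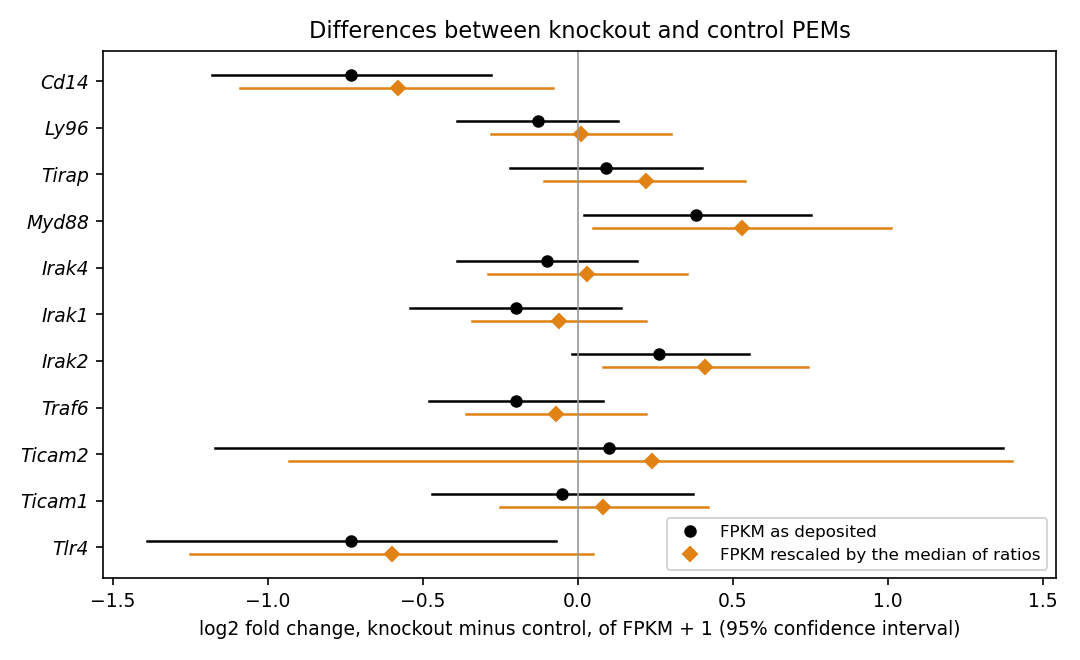
Log2 fold changes (knockout minus control, of FPKM + 1) of the 10 genes and *Tlr4* with 95% confidence intervals from limma, n = 3 per group, for FPKM as deposited (black circles) and rescaled by the median of ratios (orange diamonds). The intervals of *Cd14* lie below 0 and those of *Myd88* above 0 under both scalings, and the interval of *Ticam2* is the widest.

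Of the co-receptors, *Cd14* (Entrez 12475) was the member with the largest difference. It was at 346, 262 and 406 FPKM in knockouts 1 to 3 against 631, 554 and 484 FPKM in controls 1 to 3. No knockout library reached the level of a control, with the gap between knockout library 3 and control library 3, and the knockout mean was 60.8% of the control mean. The log2 fold change was -0.73 (standard error 0.19, 95% confidence interval from -1.18 to -0.28), short of the threshold at an adjusted p of 0.0631 from limma, and 9.97% of the tested genes had a smaller p. The value was -0.83 with an adjusted p of 0.0397 from limma without control library 3, where 1278 of the 9030 tested genes passed. With any other library left out the adjusted p from limma lay between 0.0584 and 0.22. After the rescaling the value was -0.58, with an adjusted p of 0.137 from limma. Among controls 1 to 3, the summed markers of large peritoneal macrophages (140, 88.5 and 34.3 FPKM) and of small peritoneal macrophages and monocytes (390, 277 and 198 FPKM) had the same order as *Cd14*, and those of neutrophils (195, 283 and 459 FPKM) had the opposite one. Knockout library 2, with the lowest *Cd14*, had the lowest sums of small peritoneal macrophage and monocyte markers (89.7 FPKM) and of neutrophil markers (71.2 FPKM) of all libraries, while its large peritoneal macrophage sum was the highest of the knockouts (3.53, 6.2 and 4.61 FPKM in knockouts 1 to 3). These values are given beside the result, and their part in it was not tested.

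*Ly96* (Entrez 17087), whose product MD-2 is the LPS-binding partner of TLR4, varied little in FPKM as deposited. It was at 18.2, 19.2 and 19.3 FPKM in the knockouts against 21.2, 21.2 and 20.0 FPKM in the controls. The highest and lowest libraries of a group differed 1.06-fold in both groups. The log2 fold change was -0.13 (95% confidence interval -0.39 to 0.13, limma adjusted p = 0.479), and it was 0.01 after the rescaling. This interval excludes a difference of the size seen in *Cd14*. Set against *Ly96* in the same library, a ratio that no scaling between libraries can change, *Cd14* was 19.0, 13.6 and 21.0 times as high in the knockout and 29.7, 26.2 and 24.2 times as high in the control libraries. The ratio was lower in every knockout than in every control library.

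*Tlr4* itself, the receptor that both co-receptors serve, was at 4.94, 6.33 and 9.50 FPKM in the knockouts against 11.7, 16.4 and 8.45 FPKM in the controls, with a log2 fold change of -0.73 (95% confidence interval -1.39 to -0.07, limma adjusted p = 0.149). Knockout library 3 lay above control library 3, so the groups overlapped.

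The genes most like the co-receptors were taken by the Pearson correlation of log2(FPKM + 1) over the 6 libraries, among 5459 other tested genes with a mean of at least 5 FPKM. These correlations describe 6 libraries in 2 groups and carry no test. For *Cd14* they were *6530402F18Rik* (r = 0.9957), *Atp5b* (0.9923), a subunit of ATP synthase, and *Rcl1* (0.9902). For *Ly96* they were *Prkcb* (0.9889), a protein kinase C, *Aifm1* (0.9888), a mitochondrial flavoprotein, and *Heatr3* (0.9834). All 6 were lower in every knockout library than in every control library, beside 23.0% of all tested genes. Their choice by likeness to *Cd14* and *Ly96*, which have that pattern, made this likely, so it is no support. None passed the threshold, with adjusted p between 0.0509 and 0.263 from limma.

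In the MyD88 branch, *Myd88* (Entrez 17874), the adaptor shared by most Toll-like receptors and the IL-1 receptor, was at 134, 121 and 127 FPKM in the knockouts against 115, 100 and 81.1 FPKM in the controls. All knockout libraries were above all controls, and the controls were spread more widely than the knockouts (coefficients of variation of 17.1% and 5.13%). The log2 fold change was 0.38 (standard error 0.16, 95% confidence interval from 0.02 to 0.75), with an adjusted p of 0.165 from limma. It lay between 0.25 and 0.53 in the alternatives run, and its adjusted p from limma between 0.0841 and 0.405. Exons of *Myd88* and *Acaa1a*, on the opposite strand, share 290 bases (11.3% of the exonic bases of *Myd88*) in GENCODE M21 on GRCm38, and whether the reads were counted by strand is not given in the sources used here. *Acaa1a* was at 24.8 to 31.7 FPKM in the knockout and 24.4 to 31.1 FPKM in the control libraries.

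*Irak2* (Entrez 108960), a kinase-like member of the IRAK family that sustains signalling after IRAK1, was at 58.4, 55.6 and 50.5 FPKM in the knockouts against 43.9, 44.2 and 48.2 FPKM in the controls. Here too every knockout library was above every control. The log2 fold change was 0.26 (standard error 0.12, 95% confidence interval -0.02 to 0.55, limma adjusted p = 0.207), and it was 0.41 after the rescaling (limma adjusted p = 0.118). *Irak1* (Entrez 16179), the kinase that is recruited by IRAK4 and degraded after stimulation, was at 12, 13.1 and 14.1 FPKM against 14.3, 13.6 and 17.8 FPKM. Its groups overlapped, and its log2 fold change of -0.2 had a 95% confidence interval of -0.54 to 0.14 (limma adjusted p = 0.403). The value was -0.09 without control library 3, the library with the highest *Irak1*, and -0.06 after the rescaling.

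Sequences upstream of the start sites are shown for *Myd88* and *Irak2*, the 2 members that were higher in every knockout library, and for *Ticam1*, a TRIF adaptor whose groups overlapped. They are the 120 bases before the RefSeq start site (GRCm38.p6; the labels name mm9 for the deposited values, so no coordinates are given), written 5′ to 3′ on the strand of the gene, and capitals mark a match to the interferon-stimulated response element (GAAA, any 2 bases, GAAA), which interferon regulatory factors bind.
Myd88: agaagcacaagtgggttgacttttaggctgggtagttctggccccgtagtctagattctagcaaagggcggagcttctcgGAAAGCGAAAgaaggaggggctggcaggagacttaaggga
Irak2: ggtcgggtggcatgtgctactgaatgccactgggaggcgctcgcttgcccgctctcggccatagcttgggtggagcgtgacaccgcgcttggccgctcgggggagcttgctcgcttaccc
Ticam1: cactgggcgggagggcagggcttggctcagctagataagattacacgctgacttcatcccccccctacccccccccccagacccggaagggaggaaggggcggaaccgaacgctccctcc
Letters of 4 motifs were searched on both strands in windows of 300 bases, 250 before and 50 after each start site, which were at hand for 7 members (9 windows). *Myd88* held 1 match to the interferon-stimulated response element, beginning 40 bases before its start site, a motif in 3.44% of all 32851 such windows. No member window held the NF-κB consensus (4.51% of all windows), the AP-1 motif TGANTCA (7.81%) or the PU.1 motif GAGGAAGT (3.2%). A match says that these letters are present and is not a bound site. *Cd14*, *Ly96* and *Ticam2* were not searched.

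*Irak4* (Entrez 266632), the first kinase of the complex, was at 6.07, 6.30 and 6.70 FPKM in the knockouts against 7.68, 6.49 and 6.47 FPKM in the controls. Its interval ran from -0.39 to 0.19 on the log2 scale around a value of -0.1 (adjusted p = 0.642 from limma). *Irak4* shares 395 exonic bases (7.87%) with *Twf1* on the opposite strand. *Tirap* (Entrez 117149), which brings MyD88 to the membrane, was at 6.16, 6.42 and 5.68 FPKM against 5.26, 6.56 and 5.22 FPKM, an overlap with a log2 fold change of 0.09 (95% confidence interval -0.22 to 0.40, limma adjusted p = 0.688). *Tirap* shares 39 exonic bases with *Srpr* and 446 (9.05%) with *Gm39318*, both on the opposite strand. *Traf6* (Entrez 22034), the ubiquitin ligase at the end of the complex, was at 8.18, 7.28 and 7.06 FPKM in the knockouts against 8.29, 8.81 and 9.17 FPKM in the controls. The groups were separated by the small gap between knockout library 1 and control library 1, and the log2 fold change of -0.2 (95% confidence interval from -0.48 to 0.08) had an adjusted p of 0.32 from limma.

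Within each library 9 ratios between members were computed, that of *Cd14* to *Ly96* included. They were chosen after values had been seen and carry no test. *Irak2* was 4.86, 4.24 and 3.58 times as high as *Irak1* in the knockout and 3.07, 3.25 and 2.71 times as high in the control libraries. Relative to *Irak4* it was 9.61, 8.82 and 7.54 times as high against 5.71, 6.80 and 7.45 times, with knockout library 3 just above control library 3. Relative to *Traf6* it was 7.14, 7.63 and 7.16 times as high against 5.29, 5.01 and 5.26 times. In these ratios all knockout libraries were above all controls. The ratio of *Irak1* to *Irak4* overlapped, at 1.98 to 2.11 in the knockout and 1.86 to 2.75 in the control libraries. *Myd88* relative to *Ticam1* (13.9 to 17.6 against 7.01 to 14.9) and to *Tirap* (18.9 to 22.4 against 15.3 to 21.8) overlapped too, as did *Ticam2* relative to *Ticam1* (1.14 to 2.04 against 0.573 to 2.12), and *Myd88* relative to *Cd14* did not (0.314 to 0.463 against 0.167 to 0.182).

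In the TRIF branch, *Ticam2* (Entrez 225471), the gene of the bridging adaptor TRAM, was the most variable member. It was at 8.98, 9.96 and 18.6 FPKM in knockouts 1 to 3 against 4.41, 11.7 and 24.5 FPKM in controls 1 to 3, so that library 3 was the highest in both groups. The highest control was 5.55 times the lowest, where the next largest such ratio of control libraries among the members was 1.51, in *Ticam1*. The log2 fold change of 0.10 had a 95% confidence interval of -1.17 to 1.37 (limma adjusted p = 0.923), so that neither a higher nor a lower level could be told from an equal one in these libraries. With the replicate number as a block the interval ran from -0.55 to 0.74. The value changed sign when control library 1 (-0.48) or knockout library 3 (-0.21) was left out. *Ticam2* shares 838 exonic bases (14.5%) with *Tmed7* on the same strand in GENCODE M21, and the counting of reads in the shared part is not given in the sources used here. *Tmed7*, which encodes a protein of the secretory pathway, was at 35.1, 36.8 and 39.4 FPKM in the knockouts against 36.5, 75.9 and 44.7 FPKM in the controls, with its highest value in another library than *Ticam2*.

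*Ticam1* (Entrez 106759), the gene of TRIF, was at 7.64, 8.76 and 9.12 FPKM in the knockouts against 7.69, 7.64 and 11.6 FPKM in the controls. Its log2 fold change was -0.05 (95% confidence interval -0.47 to 0.37, limma adjusted p = 0.883), with 0.13 without control library 3, the library with the highest value.

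To set the branches against each other, log2(FPKM + 1) was averaged over the 6 genes of the MyD88 branch and the 2 of the TRIF branch in each library, as a description without a test. The MyD88 mean lay between 4.22 and 4.26 in the knockout and between 4.18 and 4.21 in the control libraries. The TRIF mean lay between 3.22 and 3.82 in the knockout and between 2.78 and 4.16 in the controls. The difference between the branches was 1.04, 0.86 and 0.40 in knockout libraries 1 to 3 and 1.43, 0.80 and 0.02 in control libraries 1 to 3, with group means of 0.77 ± 0.33 and 0.75 ± 0.71 (SD, n = 3 each). The groups differed by 0.02, much less than the spread between libraries. With 1 library left out this ran from -0.35 (without control library 3) to 0.36 (without control library 1). The TRIF mean varied more between libraries than the MyD88 mean, and within it *Ticam2* more than *Ticam1*. The near-equal MyD88 means held members on both sides, 3 with a positive and 3 with a negative log2 fold change. In summed FPKM, *Myd88* and *Irak2* weighed most, and the branch stood at 210 to 225 FPKM in the knockout and 168 to 194 FPKM in the control libraries, while its other 4 genes summed to 32.4 to 33.5 against 35.5 to 38.7 FPKM.

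**Figure D3:**
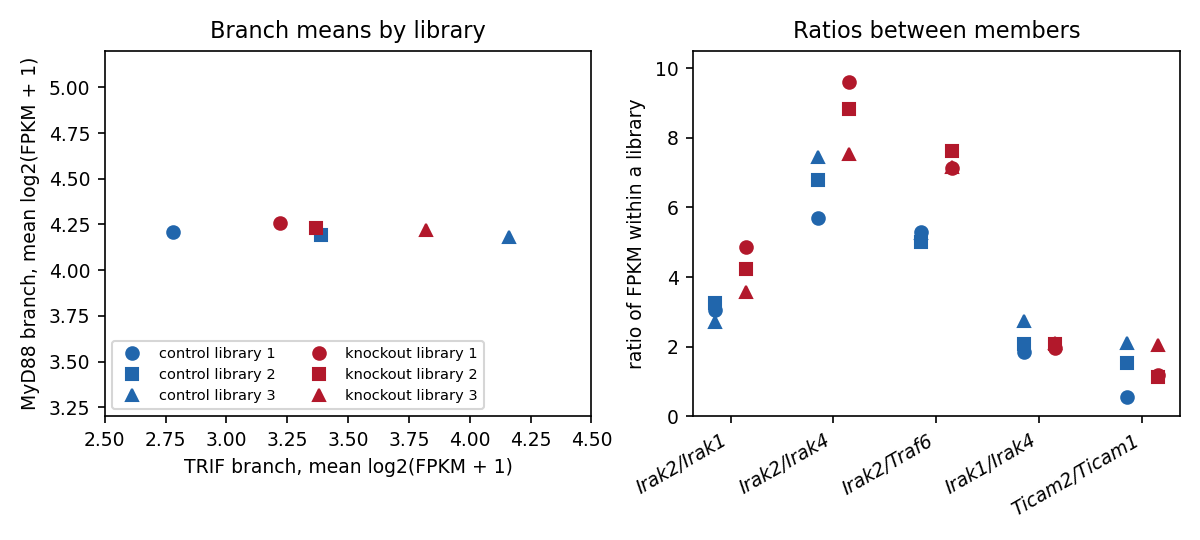
Left, mean log2(FPKM + 1) of the 6 MyD88 branch genes against that of the 2 TRIF branch genes, 1 point per library; right, ratios of FPKM between members within each library (axis from 0). The libraries lie along the TRIF axis from 2.78 to 4.16 at nearly the same MyD88 mean, and the ratios of *Irak2* to *Irak1*, *Irak4* and *Traf6* are higher in every knockout library.

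To place the adaptors in their pathway, 6 lists of other TLR4 pathway genes were read from the same fit. Of 49 tested genes on these lists, 6 passed the threshold in limma, 3 higher and 3 lower in the knockout, beside 7.31% of all tested genes (2.57% higher and 4.74% lower). The lists had a median log2 fold change of 0.03 together. With the replicate number as a block 11 passed, where 855 of all 9030 tested genes did. The number was 13 without control library 3, where 1278 of all tested genes passed. The 13 include *Lbp*, which passed the filter through the controls only. It was 0 without control library 2, knockout library 1 or knockout library 2, where 8, 30 and 63 of all tested genes passed.

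Of the receptor complex (6 tested genes, median log2 fold change -0.43), 1 was higher and 0 were lower past the threshold, and 5 had an unadjusted p below 0.05 (27.6% of all tested genes did), *Cd180* higher and *Tlr4*, *Lbp*, *Hsp90b1* and *Cnpy3* lower. *Lbp* passed the filter through the controls only (1.25 against 0.262 FPKM in the knockouts) and is no support for this count or for the median. Without control library 3, 3 genes passed, *Cd180*, *Hsp90b1* (lower, -0.53, limma adjusted p = 0.033) and *Lbp*, which is no support there either. Without control library 2, knockout library 1 or knockout library 2, 0 passed. *Cd180*, which encodes the TLR4-related receptor RP105, rose from 47.0 ± 2.59 to 115 ± 30.8 FPKM (SD, n = 3 each), a change of 1.25 on the log2 scale (standard error 0.2, adjusted p = 0.0192 from limma). It was at 112, 148 and 86.5 FPKM in the knockouts against 44.3, 47.3 and 49.5 FPKM in the controls. Its partner *Ly86* (MD-1) had a log2 fold change of 0.57 and an adjusted p of 0.339 from limma, and the other 4, *Tlr4*, *Lbp* and the chaperones *Hsp90b1* and *Cnpy3*, had negative values between -0.76 and -0.42.

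Downstream of the MyD88 complex, 12 kinases, ubiquitin enzymes and NF-κB subunits were tested (median -0.1), of which 1 was higher and 1 lower past the threshold. *Map3k8*, the kinase TPL2 of the ERK pathway, rose from 16.5 ± 1.42 to 31.6 ± 5.88 FPKM, a change of 0.88 on the log2 scale (standard error 0.17, limma adjusted p = 0.0284). *Ikbkg*, which encodes the regulatory subunit NEMO of the IκB kinase, fell from 21.3 ± 3.77 to 7.94 ± 2.15 FPKM, a change of -1.34 on the log2 scale (standard error 0.22, limma adjusted p = 0.0204). It was at 9.06, 5.46 and 9.30 FPKM in the knockouts against 16.9, 23.4 and 23.5 FPKM in the controls. *Ikbkg* shares 418 exonic bases (5.15%) with *G6pdx* on the opposite strand, which was at 75.9 to 93.7 FPKM in the knockout and 96.6 to 111 FPKM in the control libraries. Of the TRIF branch proper, *Tbk1*, *Irf3*, *Traf3*, *Ripk1* and 6 others, 0 of 10 passed in limma or limma-voom and 0 had an unadjusted p below 0.05 in limma, with values between -0.17 and 0.51.

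Of the inhibitors of the adaptors, 0 of 6 tested genes passed in limma or limma-voom and 1 had an unadjusted p below 0.05. This was *Irak3*, the gene of IRAK-M, which holds back the IRAK complex and was at 61.0, 46.6 and 83.2 FPKM in the knockouts against 101, 92.0 and 113 FPKM in the controls, with a log2 fold change of -0.71. Its adjusted p was 0.0895 from limma, and 0.0469 with the replicate block. The value was -0.92 without knockout library 3 (limma adjusted p = 0.0424) and -0.51 without knockout library 2 (limma adjusted p = 0.289). *Sigirr* stayed below the filter and *Sarm1* was not analysed here.

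The outputs of the branches were read as well. Of 8 genes induced mainly through MyD88, 1 was higher and 2 were lower past the threshold (median -0.57, 3 positive and 5 negative values). With 1 library left out the median ran from -1.02 (without control library 3) to 0.01 (without control library 1), so its direction rested on single libraries. *Nfkbia*, the gene of IκBα, rose from 215 ± 32.1 to 392 ± 71.5 FPKM (log2 fold change 0.86, adjusted p = 0.0355 from limma). The neutrophil-attracting chemokines *Cxcl1* and *Cxcl2* fell, from 2798 ± 512 to 1218 ± 298 FPKM and from 8096 ± 744 to 4099 ± 664 FPKM, with log2 fold changes of -1.21 and -0.99 (adjusted p = 0.0254 and 0.0197 from limma). None of these 3 calls held in the fit without a filter on low values, and that of *Nfkbia* was lost after the rescaling (adjusted p = 0.0528 from limma). With the replicate block 4 passed, the same 3 and *Il12b*, whose value was 0.90 on the log2 scale (limma adjusted p = 0.182 without and 0.0243 with the block). Without control library 3, where 1278 of all 9030 tested genes passed, 5 of the list did. They were the same 3 and, both lower, *Il6* (-1.79, limma adjusted p = 0.0091) and *Ptgs2* (-1.41, limma adjusted p = 0.00759). With all libraries *Il6* and *Ptgs2* overlapped between the groups, at -0.88 and -0.81 (limma adjusted p = 0.46 and 0.303). Without control library 1 they were at -0.23 and -0.52 (limma adjusted p = 0.819 and 0.482). Of 7 tested genes induced mainly through TRIF and interferon, 7 had positive values, from 0.50 in *Ccl5* to 2.02 in *Ifit2* (median 1.22), 6 had an unadjusted p below 0.05 (27.6% of all tested genes did) and 0 passed the threshold in limma or limma-voom. The groups of *Ccl5* and *Irf7* overlapped. *Ifnb1*, the gene of interferon-β, stayed below the filter, at 0.587, 0.831 and 1.14 FPKM (19, 27 and 36 reads) in the knockouts against 0.197, 0.200 and 0.215 FPKM (6 reads each) in the controls. Among the 7 tested genes control library 3 was the lowest control in all but *Ccl5*, and in *Ifnb1* it was not the lowest either. *Ifit2* was at 479, 657 and 296 FPKM in knockouts 1 to 3 against 178, 182 and 42.1 FPKM in controls 1 to 3, and *Cxcl10* was at 3275, 3404 and 2102 FPKM against 1399, 1474 and 354 FPKM. Without control library 3 the median of the 7 genes was 0.68, with 0.68 for *Ifit1*, 0.42 for *Isg15* and 0.56 for *Irf7*, which did not pass (1.22, 0.73 and 1.08 with it). The log2 fold change of *Ifit2* was then 1.33, that of *Cxcl10* 0.99 and that of *Rsad2* 1.11 (1.65 with it), and these 3 passed the threshold (adjusted p = 0.0343, 0.0338 and 0.0322 from limma). With the replicate block 3 of them passed, *Ifit2*, *Rsad2* and *Cxcl10*, with adjusted p of 0.0173, 0.021 and 0.029 from limma. Whether the outputs differed between the branches was not tested.

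**Figure D4:**
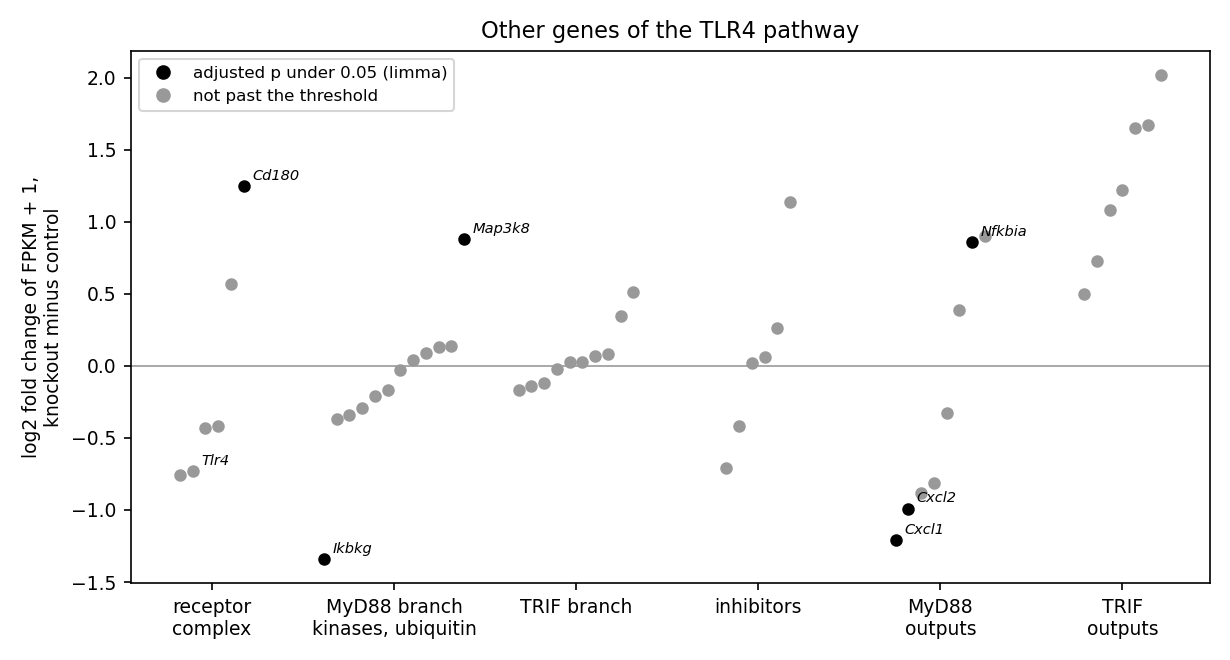
Log2 fold changes (knockout minus control, of FPKM + 1) of the 49 tested genes on 6 lists of the TLR4 pathway, 1 point per gene, ordered by value within a list. Black points passed an adjusted p of 0.05 in limma (*Cd180*, *Map3k8* and *Nfkbia* higher, *Ikbkg*, *Cxcl1* and *Cxcl2* lower), grey points did not, and all 7 TRIF output genes lie above 0 without passing.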

How the data were processed

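Total RNA of 6 PEM libraries was sequenced, 3 per group. The authors deposited 1 table with FPKM values per library (reads of a gene over its length and the reads of the library) and signal columns that hold mean read counts per group after division by DESeq2 size factors. The authors also deposited results of their DESeq2 comparison, namely a fold change (ratio), a log2 fold change, a p-value and a q-value, which were not used. The build named in the labels is mm9. Aligner, counting and annotation are not given in the sources used here.

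Whole reads were recovered from FPKM and group means (100% of values within 0.05 of a whole number in each library). The number of reads limits the precision, with between 436 and 41344 reads per member and library. log2(FPKM + 1) was fitted with limma 3.58.1 in R 4.3.3 (lmFit, eBayes with a trend) for the genes with a mean of at least 1 FPKM in one group. The pseudocount understates changes of low genes. The replicate number was used as a block in an alternative only. Deviations from the group means correlated at 0.109, 0.109 and 0.304 between libraries of the same number, for numbers 1 to 3. Knockout 2 correlated more with control 1 (0.291) than with control 2, and no source says what the numbers share. A pairing of the libraries by number is therefore not established. Alternatives were other filters (none, or at least 10 reads in every library), a pseudocount of 0.1, the block, rescaling by the median of ratios, limma-voom on recovered reads and leaving out each library. The members and lists were chosen with earlier results of these data known. All members were named whatever their values, with *Timd4*, *Lyz2*, *Tlr4*, list genes past the threshold and the 3 genes most like *Cd14* and *Ly96*; *Ly86*, *Lbp*, *Irak3*, *Il12b*, *Il6*, *Ptgs2*, *Ifit2*, *Rsad2* and the other list genes named beside them, and the genes overlapping a named gene, were added after the values were seen. Overlaps came from GENCODE M21, promoters from RefSeq.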

Additional observations from a re-analysis of the deposited data

How the results depend on the processing

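Of the 120 values that the 10 members took under 12 alternatives, 112 kept both their direction and their side of the threshold, 7 changed sign and 1 (*Cd14* without control library 3) moved past the threshold. When FPKM was rescaled (median of ratios), the log2 fold changes of *Ly96*, *Irak4* and *Ticam1* were 0.01, 0.03 and 0.08. With each library left out in turn, *Ticam1* ran from -0.14 to 0.13, *Ticam2* from -0.48 to 0.64 and *Cd14* from -0.87 to -0.56, the number of members past the threshold ran from 0 to 1, the pathway genes past it from 0 to 13, the difference between the branches from -0.35 to 0.36, and all genes past it from 8 (without control library 2) to 1278 (without control library 3), with 30 and 63 without knockout libraries 1 and 2. The cause was not tested. With the replicate number as a block 11 pathway genes passed in place of 6, and no call of a member changed. The number of all genes past the threshold was 660 (35.2% higher), and 446 to 855 under the alternatives that kept all libraries, with 51.3% higher among 669 after the rescaling. With 3 libraries a group, the intervals above set what could be seen in each member, and in *Ticam2* it was little.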
